A study of Caenorhabditis elegans with 12 samples.

Results

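Transcript levels of 8 Caenorhabditis elegans genes of stress control were measured by RNA sequencing of whole animals. They are hsf-1, its binding partner gene hsb-1, and the transcription factor genes daf-16, skn-1, pqm-1, hif-1, zip-2 and crh-1. The 8 were chosen by their sequence names, not by their values, out of 22010 genes, and they hold 43 of the 35862 transcript rows in the tables. All 8 passed the filter on low counts. Heated affl-2(sy975) mutants (strain PS8060) had been kept at 33 °C for 30 min, and unheated affl-2(sy975) mutants at 20 °C for 30 min. Heated N2 animals, the wild type, and unheated N2 animals were kept in the same ways. Each of these 4 groups had 3 libraries, each from a plate of 250 animals picked at the L4 larval stage and sealed with parafilm. The labels do not give the lesion of sy975, and they do not call the replicates separate cultures, so each p-value reflects only the spread among these libraries, which may be technical.

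HSF-1 is the heat shock factor, which binds heat shock elements and switches on chaperone genes when proteins unfold, and HSB-1 binds HSF-1 and holds it back. DAF-16 is the FOXO factor under insulin signalling. PQM-1 is a zinc finger factor known to alternate with DAF-16 in intestinal nuclei. SKN-1 is the Nrf-type factor of oxidant and xenobiotic defence, HIF-1 the hypoxia-inducible factor, ZIP-2 a bZIP factor of the response to pathogens and to blocked translation, and CRH-1 the CREB homolog. Most of these proteins are known to be controlled by location, stability or phosphorylation, none of which RNA levels report. AFFL-2 is a relative of the mammalian AF4/FMR2 scaffold proteins that serve in transcript elongation.

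In the WBcel235 build with Ensembl release 115 annotation, hsf-1 (Y53C10A.12) lies on chromosome I from 11953507 to 11963085 on the minus strand, and daf-16 (R13H8.1) on chromosome I from 10750498 to 10776703 on the plus strand. On chromosome IV, hsb-1 (K08E7.2) spans 12566092 to 12567226 and skn-1 (T19E7.2) spans 5651039 to 5660384, both on the minus strand. On chromosome III, zip-2 (K02F3.4) spans 832982 to 835814 and crh-1 (Y41C4A.4) spans 11657767 to 11693981, both on the plus strand. The minus-strand gene pqm-1 (F40F8.7) lies on chromosome II from 11150391 to 11152595, and the plus-strand gene hif-1 (F38A6.3) on chromosome V from 20780407 to 20785260. Exons of 3 members overlap another gene by a short stretch: skn-1 and csn-5 share 41 bases, zip-2 shares 64 bases with dos-3 and 78 with linc-37, and daf-16 shares 84 with the noncoding gene H36N01.5. The library kit keeps no strand, so reads from those stretches cannot be told apart.

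The libraries held 17973117 to 22657735 estimated counts, and a member had between 428 and 6918 counts in a library. The mutant gene itself, affl-2, stood at 16.3 to 19.2 CPM (each count as parts of the library total, here scaled by TMM, the trimmed mean of M values) in heated affl-2 and 15.2 to 19.6 in unheated affl-2, against 25.2 to 30.0 in heated N2 and 21 to 25 in unheated N2, so its transcript was still present in the mutant. Markers of some other tissues and stages moved with the groups. The 6 yolk genes and the adult collagen gene col-19 summed to 4276 to 7460 CPM in heated affl-2, 6584 to 8560 in unheated affl-2, 15732 to 19975 in heated N2 and 16932 to 19206 in unheated N2. In all of these libraries, labelled as L4, genes known for adult yolk production were thus plentiful. The 10 sperm genes, the list for the L4 stage, summed to 480 to 657 CPM in heated affl-2 and 498 to 580 in unheated affl-2. In N2 they summed to 399 to 483 heated and 431 to 561 unheated. Between genotypes 3 sperm genes were higher in heated affl-2 and 0 passed unheated, and 0 of 7 neuron genes passed at either temperature. Over all genes 10.1% were higher and 9.57% lower in heated affl-2, and 6.69% higher and 7.29% lower in unheated affl-2. No gene of the 7 marker lists was at 0 in all 12 libraries.

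Set side by side per transcript length, in TPM (the unit in which each transcript is counted per length as parts of the library), zip-2 was the most abundant of the 8 in each group. It averaged 190.5 ± 7.46 TPM in heated affl-2, 184 ± 23.9 in unheated affl-2, 225 ± 8.12 in heated N2 and 232 ± 12.4 in unheated N2 (SD, n = 3 each). Its nearest neighbour never reached it: hif-1 was second in both affl-2 groups, at 92.5 ± 1.93 TPM heated and 124 ± 7.0 unheated, and hsb-1 was second in both N2 groups, at 77.6 ± 4.42 heated and 96.0 ± 5.05 unheated.

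The lowest level belonged to hsf-1 in 3 of the 4 groups, at 24.1 ± 4.74 TPM in heated affl-2, 28.7 ± 3.92 in unheated affl-2 and 22.8 ± 4.21 in heated N2. In unheated N2 hsf-1 stood at 26.6 ± 2.86 TPM and pqm-1 at 23.3 ± 5.05, and their libraries overlapped. Averaged over the 12 libraries, hsf-1 ranked above 72.6% of the genes detected and zip-2 above 96.4%. In heated N2, hsb-1, pqm-1, skn-1, hif-1 and daf-16 followed each other between 77.6 and 66.7 TPM, each overlapping the next, whereas no 2 neighbours overlapped in unheated affl-2. The place of pqm-1 moved most: it ranked 6 of 8 in heated affl-2, 7 of 8 in unheated affl-2, 3 of 8 in heated N2 and 8 of 8 in unheated N2.

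**Figure D1:**
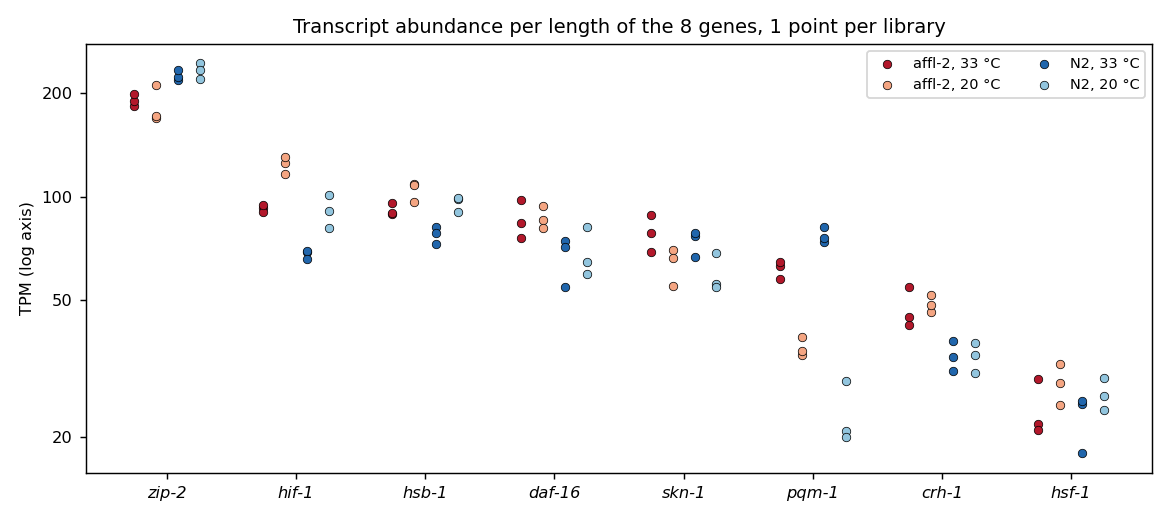
TPM of the 8 genes on a log axis, with 1 point per library (3 per group), genes ordered by their mean. zip-2 lies above the other 7 genes in each group, and the pqm-1 points of unheated N2, 19.9 to 29.1 TPM, lie near those of hsf-1.

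Changes between groups were tested on gene counts with edgeR's quasi-likelihood test, with p-values adjusted by the Benjamini-Hochberg method over all 15386 genes tested, and a gene passed at an adjusted p of 0.05. Of the 8 members, 2 rose with heat shock in affl-2, where 10.6% of all genes tested rose and 10.8% fell, and the same number rose in N2, where 9.52% of all genes rose and 12% fell. They were pqm-1 and skn-1 in both genotypes. In unheated animals 1 of 8, zip-2, was lower in affl-2 than in N2, with 7.29% of all genes lower and 6.69% higher. After heat shock 2 of 8, pqm-1 and zip-2, were lower in affl-2, with 9.57% of all genes lower and 10.1% higher. The interaction is the heat effect in mutants less the heat effect in the wild type, and in it 0 of 8 passed by edgeR, against 0.715% of all genes. There, 1 member, pqm-1, had an unadjusted p under 0.05, beside 1027 of the 15386 genes, and pqm-1 passed by DESeq2. The members' median log2 changes lay near those of all genes: 0.15 against 0.03 with heat in affl-2, 0.11 against -0.01 with heat in N2, -0.05 against 0.04 between genotypes after heat shock and 0.01 against -0.00 without it.

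**Figure D2:**
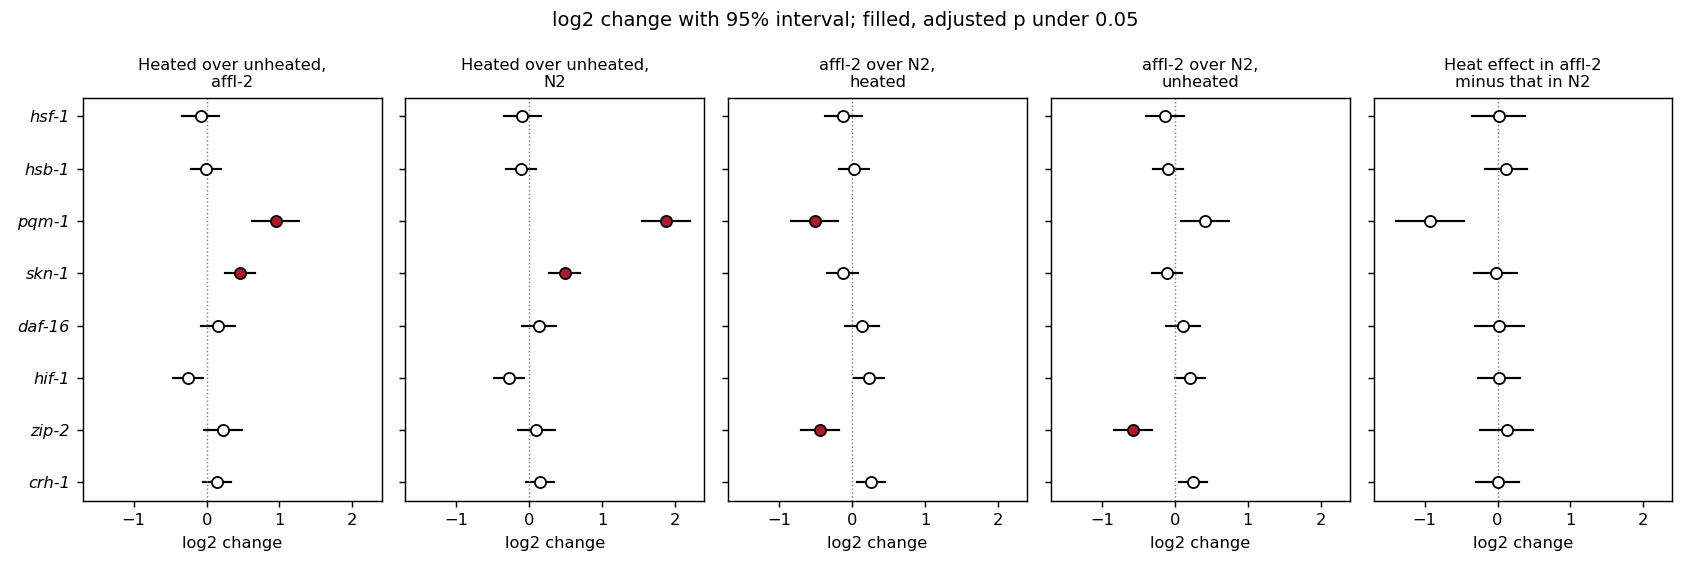
Fitted log2 changes of the 8 genes with 95% intervals in the 5 comparisons, filled where the adjusted p was under 0.05. The filled points are pqm-1 and skn-1 in both heat shock panels, pqm-1 and zip-2 between heated genotypes, and zip-2 between unheated genotypes.

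No change of hsf-1 or hsb-1 passed in any of the 5 comparisons. hsf-1 stood at 53, 64 and 53.1 CPM in heated affl-2, 65.4, 53.3 and 61.4 in unheated affl-2, 66.7, 65.5 and 52.7 in heated N2 and 65.9, 69.5 and 62.5 in unheated N2. All 4 groups overlapped, with 1 library of 3 standing away from the other two in heated affl-2, unheated affl-2 and heated N2. The fitted log2 change with heat was -0.08 ± 0.12 (SE) in affl-2, with a 95% interval of -0.34 to 0.17, and -0.10 ± 0.12 in N2, with an interval of -0.35 to 0.16. Between genotypes it was -0.12 after heat shock (interval -0.38 to 0.14) and -0.14 without it (interval -0.39 to 0.12). These intervals leave out a change of the hsf-1 transcript beyond 0.4 on the log2 scale in either direction, for these libraries and this scaling.

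The groups of hsb-1 overlapped likewise. It stood at 33.1, 31.5 and 34.9 CPM in heated affl-2, 32.6, 31.7 and 35.4 in unheated affl-2, 30.0, 33.0 and 34.7 in heated N2 and 36.3, 34.5 and 35.2 in unheated N2. Every group overlapped every other, and the unheated N2 libraries lay at the upper end. The log2 change with heat was -0.00 (interval -0.21 to 0.20) in affl-2 and -0.12 (interval -0.32 to 0.09) in N2. Under scaling by library size alone, which moves the median log2 change of all genes by -0.18 with heat in N2 and 0.22 between heated genotypes, hsb-1 passed in both (-0.30, adjusted p = 0.0241, and 0.25, adjusted p = 0.0459), while hsf-1 passed under no setting.

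pqm-1 showed the largest fitted changes of the 8 genes, and rose with heat in both genotypes. It stood at 64, 52.7 and 69.3 CPM in heated affl-2, 28.8, 35.8 and 31.9 in unheated affl-2, 84.3, 87.8 and 93.4 in heated N2 and 30.7, 20.1 and 21.6 in unheated N2. The heated libraries lay above the unheated ones in each genotype, heated N2 lay above heated affl-2, and the unheated groups overlapped. With heat pqm-1 rose 1.93-fold in affl-2 (log2 change 0.95 ± 0.15, adjusted p = 0.000521, edgeR) and 3.66-fold in N2 (log2 change 1.87 ± 0.16, adjusted p = 1.1e-06), 3 libraries per group. Leaving out any 1 library kept both calls, with log2 changes of 0.84 to 1.03 in affl-2 and 1.76 to 2.11 in N2.

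The genotype difference of pqm-1 had opposite signs with and without heat. After heat shock pqm-1 was lower in affl-2, with a log2 change of -0.51 ± 0.15 (adjusted p = 0.0286, edgeR). This call was lost without any one of the 3 heated N2 libraries or of heated affl-2 replicates 1 and 2 (adjusted p of 0.0577 to 0.0826), and under scaling by library size alone (-0.29, adjusted p = 0.136). That scaling shifts the all-gene median by 0.18 between unheated genotypes. Without heat shock pqm-1 averaged 32.2 ± 3.50 CPM in affl-2 and 24.1 ± 5.73 CPM in N2, with a log2 change of 0.41 ± 0.15 that missed the threshold (adjusted p = 0.0909). That difference passed in a fit with a replicate block that exchanges the numbers of unheated affl-2 replicates 1 and 2 (adjusted p = 0.0203), and without unheated N2 replicate 1, the highest of its group (log2 change 0.67, adjusted p = 0.0113).

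The heat shock effect on pqm-1 was smaller in affl-2 than in N2 by a fitted log2 difference of -0.93 ± 0.21, with a 95% interval of -1.39 to -0.47. Over all genes its adjusted p was 0.076 in edgeR, above the threshold. Among the other settings it ranged between 0.00463 (DESeq2) and 0.0873 (library size alone), with 0.00662 under the exchanged replicate block and 0.0451 without the low-count filter. Leaving out 1 library gave 0.00816 to 0.201, the lowest without unheated N2 replicate 1, and 0.0481 without unheated affl-2 replicate 1.

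skn-1 rose with heat by a similar amount in both genotypes. It stood at 195, 203 and 180.0 CPM in heated affl-2, 149, 124 and 146 in unheated affl-2, 212, 212 and 209 in heated N2 and 143, 165 and 143 in unheated N2. No heated library overlapped an unheated one, and the heated N2 libraries were the tightest set. The rise was 1.38-fold in affl-2 (log2 change 0.46 ± 0.10, adjusted p = 0.00378, edgeR) and 1.40-fold in N2 (log2 change 0.49 ± 0.10, adjusted p = 0.00235). Both passed in each of the alternative settings and without each library in turn, at log2 changes of 0.30 to 0.56. The difference of the heat effects was -0.02, with an interval of -0.32 to 0.27, and genotype differences were -0.13 (interval -0.34 to 0.08) after heat shock and -0.11 (interval -0.31 to 0.10) without it.

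Tissue markers also moved with heat in these whole animals. In their pooled RNA a change within a tissue cannot be told from a change in that tissue's share. The 7 muscle genes summed to 14501 to 18508 CPM in heated affl-2 against 9728 to 10846 in unheated affl-2. In N2 they summed to 18938 to 20457 heated against 10142 to 14109 unheated. Of them, 7 of 7 rose in affl-2 and 5 of 7 in N2. Over all genes 10.6% rose and 10.8% fell in affl-2, and 9.52% rose and 12% fell in N2. The 12 intestine genes, of which 4 fell in each genotype, summed to 3016 to 4125 CPM in heated affl-2 against 3854 to 4809 in unheated affl-2, and to 4837 to 6028 in heated N2 against 5620 to 6783 in unheated N2. Their part in the rise of pqm-1 and skn-1 was not tested.

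**Figure D3:**
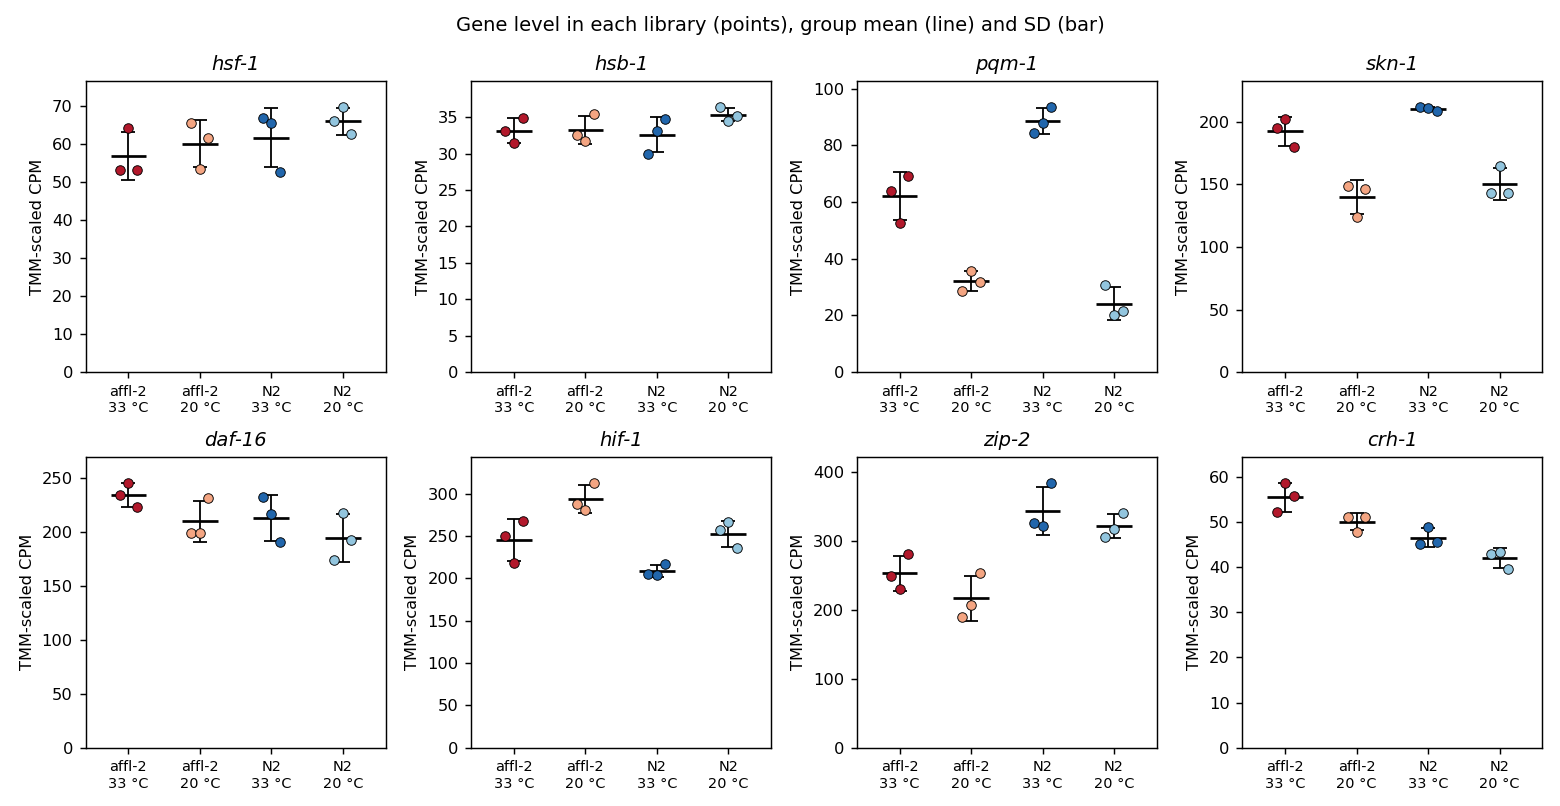
TMM-scaled CPM of each gene in the 12 libraries, with points for libraries, lines for group means and bars for SD (n = 3). pqm-1 and skn-1 are higher in both heated groups, zip-2 is lower in both affl-2 groups, and hsf-1 and hsb-1 overlap in all 4 groups.

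zip-2 was lower in affl-2 mutants at both temperatures. It stood at 249, 230.1 and 281 CPM in heated affl-2, 189, 207 and 254 in unheated affl-2, 326, 321 and 384 in heated N2 and 306, 318 and 340.5 in unheated N2. Every affl-2 library lay below every N2 library. Without heat shock the log2 change was -0.57 ± 0.12 (adjusted p = 0.0067, edgeR), which passed in all alternative settings and without each library in turn, at -0.65 to -0.39. After heat shock it was -0.44 ± 0.12 (adjusted p = 0.0212). That call was lost without heated N2 replicate 3 (-0.34, adjusted p = 0.0873), without heated affl-2 replicate 1 (-0.43, adjusted p = 0.081) and under scaling by library size alone (-0.22, adjusted p = 0.119).

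Heat moved zip-2 by a log2 change of 0.22 (interval -0.03 to 0.48, adjusted p = 0.206) in affl-2 and 0.10 (interval -0.16 to 0.36, adjusted p = 0.624) in N2, and neither passed in edgeR; the exchanged replicate block gave an adjusted p of 0.0322 in affl-2. The difference of the 2 heat effects was 0.13 (interval -0.24 to 0.49). Beside the genotype difference of zip-2 and pqm-1 stands that of the yolk and adult cuticle markers, of which 7 of 7 were lower in heated affl-2 than in heated N2 and 6 of 7 in unheated affl-2 than in unheated N2. Of the 9 germline genes, 4 were lower in heated and 5 in unheated affl-2, and of the 8 molt genes, 2 and 3. Over all genes 9.57% and 7.29% were lower. The germline genes summed to 1796 to 2441 CPM in heated and 1783 to 2461 in unheated affl-2, against 2605 to 3036 in heated and 2615 to 2854 in unheated N2. The part of these marker differences in the levels of zip-2, pqm-1 and crh-1 was not tested.

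crh-1 was ordered the other way, with no call. It stood at 52.1, 58.6 and 55.8 CPM in heated affl-2, 51.2, 47.8 and 51.1 in unheated affl-2, 45.1, 48.9 and 45.6 in heated N2 and 43, 43.4 and 39.5 in unheated N2. The affl-2 libraries lay above the N2 libraries of the same temperature, without overlap. The log2 change between genotypes was 0.25 ± 0.09 both after heat shock (adjusted p = 0.0604, edgeR) and without it (adjusted p = 0.0759). Both passed under the exchanged replicate block (adjusted p of 0.0254 heated and 0.0325 unheated), and under library size alone (0.00247 and 0.00664), and the unheated one also by DESeq2 (0.0259). With heat the log2 change was 0.15 in each genotype (adjusted p = 0.258 in affl-2 and 0.272 in N2).

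hif-1 was lower in heated than in unheated libraries of both genotypes, at the edge of the threshold. It stood at 249.6, 219 and 268 CPM in heated affl-2, 288, 280.1 and 312 in unheated affl-2, 205, 204 and 217 in heated N2 and 256, 266 and 236 in unheated N2. No heated library overlapped the unheated ones of its genotype, and every affl-2 library lay above the N2 libraries of the same temperature. The log2 change with heat was -0.26 ± 0.10 in affl-2 (adjusted p = 0.0707, edgeR) and -0.28 ± 0.10 in N2 (adjusted p = 0.055). With the exchanged replicate block these gave adjusted p of 0.0309 and 0.022, by DESeq2 0.0281 and 0.0478, and by library size alone 0.00417 and 0.00135. Between genotypes the log2 change was 0.23 after heat shock (adjusted p = 0.0997, and 0.0494 with the exchanged block) and 0.21 without it (adjusted p = 0.157); library size alone gave adjusted p of 0.00178 and 0.00622.

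As a gene sum daf-16 passed in none of the 5 comparisons by edgeR, with an unadjusted p of 0.166 to 0.862. It stood at 235, 245 and 223 CPM in heated affl-2, 199, 199 and 231 in unheated affl-2, 232, 217 and 190.3 in heated N2 and 174, 218 and 192 in unheated N2. The groups overlapped within each genotype and within each temperature, and heated affl-2 lay above unheated N2. With heat its log2 change was 0.16 (interval -0.07 to 0.39) in affl-2 and 0.13 (interval -0.10 to 0.37) in N2, and between genotypes 0.14 (interval -0.10 to 0.37) after heat shock and 0.11 (interval -0.12 to 0.34) without it. Under library size alone the value between heated genotypes was 0.36 (adjusted p = 0.0235).

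Isoform shares were examined next, as the percentage of a gene's TPM held by a transcript row. Since kallisto divides reads of 50 nt among overlapping models, these shares are estimates. The test of usage, edgeR's diffSpliceDGE, asks whether a transcript changed by more or less than the rest of its gene. Of the 43 rows, 35 could be tested, and 0 passed in any comparison. With heat 6 of the 35 in affl-2 and 4 in N2 had an unadjusted p under 0.05. Between heated genotypes 5 had, between unheated genotypes 3 and in the interaction 5. The share of all transcripts at that unadjusted cut is not given here, so these counts have no background beside them. At the adjusted threshold calls were few over all 13789 transcripts too. They made up 0.326% with heat in affl-2, 0.45% with heat in N2 and 0.196% between heated genotypes. Between unheated genotypes they made up 0.0725%, and in the interaction 0.0653%. By limma's diffSplice, 2 member rows were called with heat in N2, 1 with heat in affl-2 and 2 in the interaction.

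The daf-16 gene has 14 rows. In release 115 the a form starts at 10771508, the b and c forms at 10763103 and the d and f forms at 10750960 and 10750632. Summing the rows of each lettered form, the c form held 10.4, 9.55 and 8.83% of daf-16 TPM in heated affl-2, 0.024, 0.021 and 5.54% in unheated affl-2, 10.7, 18.4 and 14.2% in heated N2 and 0.933, 0.370 and 6.01% in unheated N2. All heated libraries lay above all unheated ones, and replicate 3 was the highest of both unheated groups. The b form ran the other way, at 19.8, 18.6 and 18.7% in heated affl-2 against 28.9, 35.2 and 32.2% in unheated affl-2. In N2 it held 19.6, 9.91 and 16.06% heated against 26.3, 32.4 and 31.3% unheated, without overlap in either genotype. The b.1 and c.1 models of release 115 share both ends, at 10763103 and 10776702, and kallisto divides the reads that b and c share. How far that division enters their opposite moves was not tested.

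A test on these lettered forms was added after the data were seen. In it the c form of daf-16 differed from its gene by 2.23 on the log2 scale with heat in affl-2 (adjusted p = 0.194 over 9059 forms) and by 2.53 in N2 (adjusted p = 0.072), and 0.607% and 0.806% of all forms passed, with 0.144% in the interaction. With the exchanged replicate block the adjusted p was 0.00233 in affl-2 and 0.0012 in N2. By limma the 2 rows of the c form, c.1 and c.2, passed with heat in N2 (adjusted p of 0.0273 and 0.0394). With heat in affl-2 the c.1 and c.2 rows had log2 values of 2.09 and 2.41, and neither passed. Without unheated affl-2 replicate 3, the library of that group with a c share above 1%, they had 7.91 and 10.9 and both passed (adjusted p of 0.000415 and 0.000255). Without that library both rows also passed between unheated genotypes, at -6.07 (adjusted p = 0.0284) and -8.74 (adjusted p = 0.0182). In the files the c rows are 3476 and 3035 nt long and the b rows 3043 and 2602 nt, while release 115 gives 2704 and 2698 nt for c.1 and b.1, so the models behind these shares differ from the current annotation.

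The a form of daf-16 held 8.79 ± 0.933% in heated affl-2, 3.93 ± 0.878% in unheated affl-2, 6.87 ± 1.23% in heated N2 and 5.21 ± 0.296% in unheated N2. Heated libraries lay above unheated ones in each genotype, with no call (adjusted p = 1 in both). The d and f forms held 15.5 ± 2.76 and 18.5 ± 4.78% in heated affl-2, 19.3 ± 5.10 and 16.47 ± 4.0% in unheated affl-2, 21.9 ± 1.25 and 18.4 ± 1.58% in heated N2 and 14.2 ± 5.24 and 21.2 ± 6.34% in unheated N2. The e row held 20.5 ± 3.94% in heated affl-2, 20.6 ± 4.41% in unheated affl-2, 12 ± 3.33% in heated N2 and 19.5 ± 4.10% in unheated N2. The h row averaged between 5.55 and 8.37%, and g, i, k, l and m each averaged under 2% in each group.

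**Figure D4:**
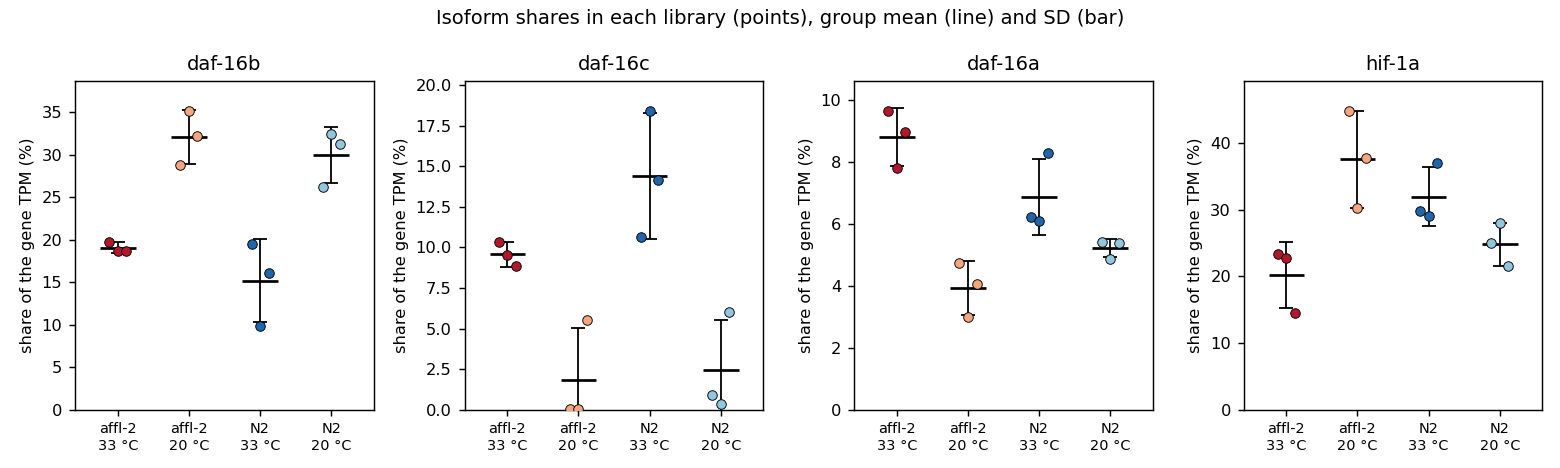
Share of the gene's TPM held by the b, c and a forms of daf-16 and the a form of hif-1, with points for libraries, lines for group means and bars for SD (n = 3), cut at 0. The c form of daf-16 lies above 8% in all 6 heated libraries and at or below 6.01% in all unheated ones.

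hif-1 has 6 rows, of which e and f were listed at 0 in every library. The a form held 23.4, 22.7 and 14.6% in heated affl-2, 44.8, 30.3 and 37.7% in unheated affl-2, 29.8, 29.0 and 37.1% in heated N2 and 25, 28 and 21.6% in unheated N2. It was lower in heated than in unheated affl-2 and higher in heated than in unheated N2, without overlap in either. In affl-2 its log2 change less that of the gene was -0.89 (adjusted p = 0.183 by transcript rows, 0.0207 by lettered forms and 0.0209 by lettered forms with the exchanged block). In limma it was -1.26 (adjusted p = 0.0012). The difference of the heat effects was -1.26 by lettered forms (adjusted p = 0.0637), and it passed in limma (-1.78, adjusted p = 0.00716). The a and b rows are 2647 and 2653 nt long so nearly equal in length; together they held 45 ± 3.51% in heated affl-2, 55.6 ± 4.71% in unheated affl-2, 53.3 ± 0.746% in heated N2 and 48.9 ± 3.89% in unheated N2. The c and d rows held between 18 and 31% on average.

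For skn-1 the long a form led with 45.6 ± 6.13% in heated affl-2, 47.7 ± 8.71% in unheated affl-2, 56.5 ± 1.72% in heated N2 and 51.0 ± 3.25% in unheated N2. The skn-1 d rows together held 38.1 ± 4.55% in heated affl-2, 33.4 ± 7.10% in unheated affl-2, 27.4 ± 3.02% in heated N2 and 28.8 ± 3.89% in unheated N2, the b row 14.5 to 19.8% on average and the 3 c rows under 3%. The shorter of the 2 zip-2 rows, K02F3.4.2, held between 71.9 and 74.7% on average in each group, with SDs of 0.503 to 2.27. The longer pqm-1 row, F40F8.7.2, held 62.9 ± 3.6% in heated affl-2, 58.6 ± 11.7% in unheated affl-2, 64 ± 11.7% in heated N2 and 54.8 ± 8.36% in unheated N2, so both heated and unheated pqm-1 came from both rows.

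Of the 7 crh-1 rows, a averaged 32.3 to 37.3%, c 24.4 to 28.3% and d 17.6 to 23% over the groups, g 7.85 to 11.5%, b 4.39 to 11.4%, and e and f no more than 5.06%. hsb-1 has 4 rows, and the first held 49.6 ± 3.13% in heated affl-2, 47.0 ± 5.25% in unheated affl-2, 48.4 ± 3.89% in heated N2 and 51.9 ± 7.90% in unheated N2. Its rows 2 and 3, 596 and 599 nt long, were high in different libraries: row 3 was at 0.062% or less in heated affl-2 and between 0 and 25.8% elsewhere, while their sum was 25.8 ± 5.95% in heated affl-2, 30.7 ± 5.10% in unheated affl-2, 24.6 ± 4.01% in heated N2 and 30.0 ± 9.57% in unheated N2. hsf-1 has a single row.

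Most genes tested from a list of HSF-1 regulators rose with heat, while hsf-1 itself did not pass. Of 9 such genes, 7 rose in affl-2 and 7 in N2, beside 10.6% and 9.52% of all genes. Their median log2 changes were 0.43 and 0.57. hsp-90, the cytosolic HSP90, rose by 0.78 ± 0.11 in affl-2 (adjusted p = 0.00018, edgeR) and 1.42 ± 0.11 in N2 (adjusted p = 4.97e-07), and hsp-1, the constitutive HSP70, by 0.36 ± 0.10 (adjusted p = 0.02) and 1.13 ± 0.10 (adjusted p = 2.04e-06). After heat shock both were lower in affl-2, hsp-1 by -0.99 and hsp-90 by -0.85, and for hsp-1 the heat effects differed (-0.78 ± 0.14, adjusted p = 0.0151, and 0.0561 without heated affl-2 replicate 1). sti-1, the HOP cochaperone, rose by 0.71 in affl-2 and 0.57 in N2, ogt-1, the O-GlcNAc transferase, by 0.50 and 0.59, cdc-37 by 0.43 and 0.39, and ddl-2, whose product binds HSF-1 together with HSB-1, by 0.73 and 0.59. The kinase gene hpk-1 changed by -0.13 in affl-2 and -0.23 in N2 and ddl-1 by -0.23 and -0.13, with no call.

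Of 9 inducible chaperone targets of HSF-1 tested, 9 rose with heat in each genotype, beside 10.6% of all genes in affl-2 and 9.52% in N2. Their median log2 changes were 5.92 in affl-2 and 7.61 in N2, against 0.03 and -0.01 for all genes. In heated affl-2 8 of the 9 were lower than in heated N2, beside 9.57% of all genes. hsp-70 averaged 110.01 CPM in heated affl-2, 1.81 in unheated affl-2, 2744 in heated N2 and 4.08 in unheated N2, beside hsf-1, for which no change passed in any test.

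Of 18 insulin signalling genes tested upstream of DAF-16, 2 rose and 1 fell with heat in each genotype, beside 10.6% and 10.8% of all genes in affl-2 and 9.52% and 12% in N2. Besides daf-2, aap-1 rose in affl-2 and age-1 in N2, and each of these calls was lost in 5 other settings. The receptor gene daf-2 rose by 0.69 ± 0.16 in N2 (adjusted p = 0.00563, edgeR) and by 0.52 ± 0.16 in affl-2 (adjusted p = 0.0285), where the call was lost in 7 of the other settings. ist-1, an insulin receptor substrate gene, fell by 0.66 in affl-2 and by 0.61 in N2, a call lost without unheated N2 replicate 2. Of 10 class I targets, genes known to be raised by DAF-16, 1 rose with heat in each genotype. This was icl-1, the glyoxylate cycle enzyme, with a log2 change of 0.96 ± 0.13 in affl-2 (adjusted p = 0.000161) and 1.55 ± 0.13 in N2 (adjusted p = 1.52e-06).

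Between genotypes the class I targets split. Of the 10, 4 were lower and 1 higher in affl-2 than in N2 at either temperature. Over all genes 9.57% were lower and 10.1% higher heated, and 7.29% lower and 6.69% higher unheated. icl-1 was lower in affl-2 by -2.08 heated and -1.50 unheated, the lysozyme gene lys-7 by -1.16 and -1.29, and dod-3 by -2.70 and -2.97, while fat-5, a fatty acid desaturase gene, was higher by 1.36 in both. The superoxide dismutase gene sod-3 averaged 1.84 CPM in heated and 1.74 in unheated affl-2, against 1.04 in heated and 1.09 in unheated N2 (adjusted p = 0.0807 heated and 0.167 unheated).

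Class II is known as the set that falls under low insulin signalling and carries the element that PQM-1 binds. Genes listed under it fell rather than rose with heat where they changed, while pqm-1 itself rose. The 11 tested had median log2 changes of -0.39 in affl-2 and -0.37 in N2, against 0.03 and -0.01 for all genes. Of them, 4 fell in affl-2 and 3 in N2, beside 10.8% and 12% of all genes. The C-type lectin gene clec-186 fell by 0.84 in affl-2 (adjusted p = 0.00246, edgeR) and by 0.63 in N2 (adjusted p = 0.0139). Most of these calls were lost without any one of several libraries. In affl-2 those of gst-4, dod-19 and dod-24 were all lost without unheated affl-2 replicate 2. They were lost in 1, 3 and 5 other settings. The 3 calls in N2, of clec-186, dod-17 and dod-19, were all lost without unheated N2 replicate 3, and also without heated N2 replicate 1. They were lost in 2, 4 and 6 other settings. Between genotypes 6 of 11 were lower and 2 higher in affl-2, both heated and unheated. Over all genes 9.57% were lower and 10.1% higher heated, and 7.29% lower and 6.69% higher unheated. dod-17 was lower by -1.05 heated and -1.18 unheated, and the lysozyme gene lys-2 by -1.66 and -1.43, while dod-21 was higher by 2.89 and 2.11. The glutathione transferase gene gst-4, which is listed among the SKN-1 targets too, was lower by -1.48 and -0.93. The yolk markers given above were lower in affl-2 too, and so was the sum of the intestine markers. Of the 12 intestine genes, though, 2 were lower in affl-2 at each temperature and 1 was higher heated. Their median log2 changes were 0.20 heated and 0.08 unheated. The part of these markers in the differences of the class II genes was not tested.

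Around SKN-1, the rise of skn-1 stood beside that of tir-1, whose adaptor protein signals to the p38 kinase cascade. tir-1 rose by 0.78 ± 0.14 in affl-2 (adjusted p = 0.000958, edgeR) and by 0.87 ± 0.14 in N2 (adjusted p = 0.000356). It was 1 of 2 of the 11 regulators that rose in each genotype, beside 10.6% of all genes in affl-2 and 9.52% in N2. The other, wdr-23, whose product targets SKN-1 for degradation, rose by 0.31 and 0.42. Its call in affl-2 was lost in 12 other settings and that in N2 under library size alone. Of 10 SKN-1 targets tested, 2 rose and 1 fell with heat in affl-2, where 10.6% of all genes rose and 10.8% fell. In N2 4 rose, beside 9.52% of all genes. ugt-13, a glucuronosyltransferase gene, rose by 1.76 ± 0.15 in affl-2 (adjusted p = 2.69e-06) and by 3.89 ± 0.16 in N2 (adjusted p = 5.56e-10), and gsr-1, the glutathione reductase gene, by 0.65 and 0.69. gst-7, a glutathione transferase gene, averaged 59.5 CPM in heated and 55.2 in unheated affl-2, against 107 in heated and 50.4 in unheated N2, and rose in N2 by 1.08 ± 0.12 (adjusted p = 2.34e-05). The classic target gcs-1 changed by -0.00 in affl-2 and 0.11 in N2, with no call.

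The heat effects on SKN-1 targets differed between genotypes for ugt-13 (-2.13 ± 0.21, adjusted p = 7.46e-05, edgeR), gst-7 (-0.97 ± 0.18, adjusted p = 0.0141) and the nitrilase gene nit-1 (-1.10 ± 0.23, adjusted p = 0.042), although that of skn-1 did not pass. The call of nit-1 was lost in 12 other settings, library size alone and the replicate block by title numbers among them. In heated affl-2 5 of the 10 were lower than in heated N2, beside 9.57% of all genes. Their median log2 change was -0.65 against 0.04 for all genes.

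Around HIF-1, the 9 regulators and partners had median log2 changes of 0.00 with heat in affl-2 and -0.09 in N2. Of these, 3 fell in affl-2 and 3 in N2, beside 10.8% and 12% of all genes. In both genotypes rhy-1 and egl-9 were among them; the third was vhl-1 in affl-2, a call lost in 5 other settings, and swan-1 in N2, lost in 2. rhy-1, a membrane protein gene that represses hif-1 activity, averaged 3.24 CPM in heated affl-2, 14 in unheated affl-2, 4.95 in heated N2 and 15.4 in unheated N2. Its log2 change was -2.11 ± 0.17 in affl-2 (adjusted p = 1.2e-06, edgeR) and -1.64 ± 0.16 in N2 (adjusted p = 5.33e-06). egl-9, the prolyl hydroxylase that marks HIF-1 for degradation, fell by 0.52 in affl-2 and by 0.62 in N2. Both genes are known as HIF-1 targets too, as is nhr-57, a nuclear receptor gene that fell by 1.32 ± 0.16 in affl-2 (adjusted p = 7.25e-05) and by 0.99 ± 0.17 in N2 (adjusted p = 0.000793).

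Of 8 HIF-1 targets in the list, 1 fell with heat in affl-2, beside 10.8% of all genes. In N2 1 fell and 1 rose, beside 12% and 9.52% of all genes. The one that rose was cah-4, a carbonic anhydrase gene, at 84.6 CPM in heated and 85.1 in unheated affl-2, against 149 in heated and 84.1 in unheated N2 (log2 change in N2 0.82 ± 0.18, adjusted p = 0.00559, edgeR). Between heated genotypes 2 were lower in affl-2, cah-4 by -0.81 and the cysteine synthase gene cysl-2 by -1.90. F22B5.4 and ldh-1 were higher, with calls lost in 10 and 11 other settings. Over all genes 9.57% were lower and 10.1% higher there.

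Several other bZIP factor genes rose with heat in both genotypes. Of 15 tested, 7 rose and 1 fell in each genotype. Over all genes 10.6% rose and 10.8% fell in affl-2, and 9.52% rose and 12% fell in N2. The 15 had median log2 changes of 0.26 in affl-2 and 0.61 in N2. cebp-1, a C/EBP factor gene, averaged 149 CPM in heated affl-2, 26.4 in unheated affl-2, 196 in heated N2 and 23.4 in unheated N2, a log2 change of 2.50 ± 0.14 in affl-2 (adjusted p = 4.32e-08, edgeR) and 3.07 ± 0.14 in N2 (adjusted p = 1.75e-09). zip-10 rose by 1.86 and 3.04, zip-5 by 1.2 and 2.01, and atf-7, the p38-controlled immune factor gene, by 0.84 and 1.15. The AP-1 gene fos-1 rose by 0.96 in affl-2 and 0.61 in N2, and was higher in heated affl-2 than in heated N2 by 0.56 ± 0.11 (adjusted p = 0.00433), while xbp-1, the factor of the endoplasmic reticulum stress response, was lower there by -0.55 ± 0.12 (adjusted p = 0.00563).

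Infection response genes, of which irg-1 and irg-2 are known to need ZIP-2, were followed as a list of 5 tested. With heat 2 rose in each genotype, beside 10.6% of all genes in affl-2 and 9.52% in N2. Between genotypes 2 were lower in affl-2 at each temperature, beside 9.57% of all genes heated and 7.29% unheated. irg-2 rose with heat in both genotypes, a call lost in 5 other settings in affl-2 and 7 in N2. C25F9.11 rose with heat by 1.59 ± 0.33 in affl-2 (adjusted p = 0.00344, edgeR) and 2.56 ± 0.35 in N2 (adjusted p = 0.000123). irg-4 was lower in affl-2, by -1.80 ± 0.29 heated (adjusted p = 0.00111) and -2.0 ± 0.29 unheated (adjusted p = 0.000757), the same direction as zip-2. irg-5 was lower too, a call lost in 2 other settings heated and 3 unheated. irg-1 averaged 2.82 CPM in heated and 4.78 in unheated affl-2, against 2.62 in heated and 4.74 in unheated N2, with genotype changes of 0.12 heated and 0.01 unheated and no call.

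Of 15 genes of the cAMP and calcium pathways to CRH-1, 1 rose with heat in affl-2, beside 10.6% of all genes. With heat in N2 6 fell, beside 12% of all genes. The one in affl-2, ckk-1, lost its call in 11 other settings, and in N2 kin-1 lost its call in 4 and acy-1 in 2. In N2 cmk-1, the calmodulin-dependent kinase gene, fell by 1.11 ± 0.21 (adjusted p = 0.00137, edgeR) and cnb-1, the regulatory subunit of calcineurin, by 0.57 ± 0.14 (adjusted p = 0.00914). In affl-2 acy-1, an adenylyl cyclase gene, was higher than in N2, by 0.62 ± 0.11 heated (adjusted p = 0.00222) and 0.50 ± 0.11 unheated (adjusted p = 0.00908), the direction in which crh-1 lay. The heat effects were not shown to differ between genotypes for cmk-1 (difference 0.57 ± 0.29, adjusted p = 0.807) or cnb-1 (0.20 ± 0.20, adjusted p = 0.946).

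Of 15 further stress factor genes, 2 rose and 3 fell with heat in affl-2, where 10.6% of all genes rose and 10.8% fell. In N2 3 rose and 4 fell, beside 9.52% and 12% of all genes, and the call of elt-2 was lost without any one of 3 libraries. mxl-3, a repressor of lysosomal lipase genes, fell by 1.11 ± 0.13 in affl-2 (adjusted p = 5.13e-05, edgeR) and by 0.70 ± 0.13 in N2 (adjusted p = 0.00153). pha-4, the FOXA gene, rose by 0.63 and 0.49, and lin-35, the retinoblastoma homolog, by 0.51 and 0.56; both calls in N2 were lost under library size alone. The nuclear receptor genes daf-12 and nhr-80 were higher in heated affl-2 than in heated N2, by 0.61 and 0.60.

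**Figure D5:**
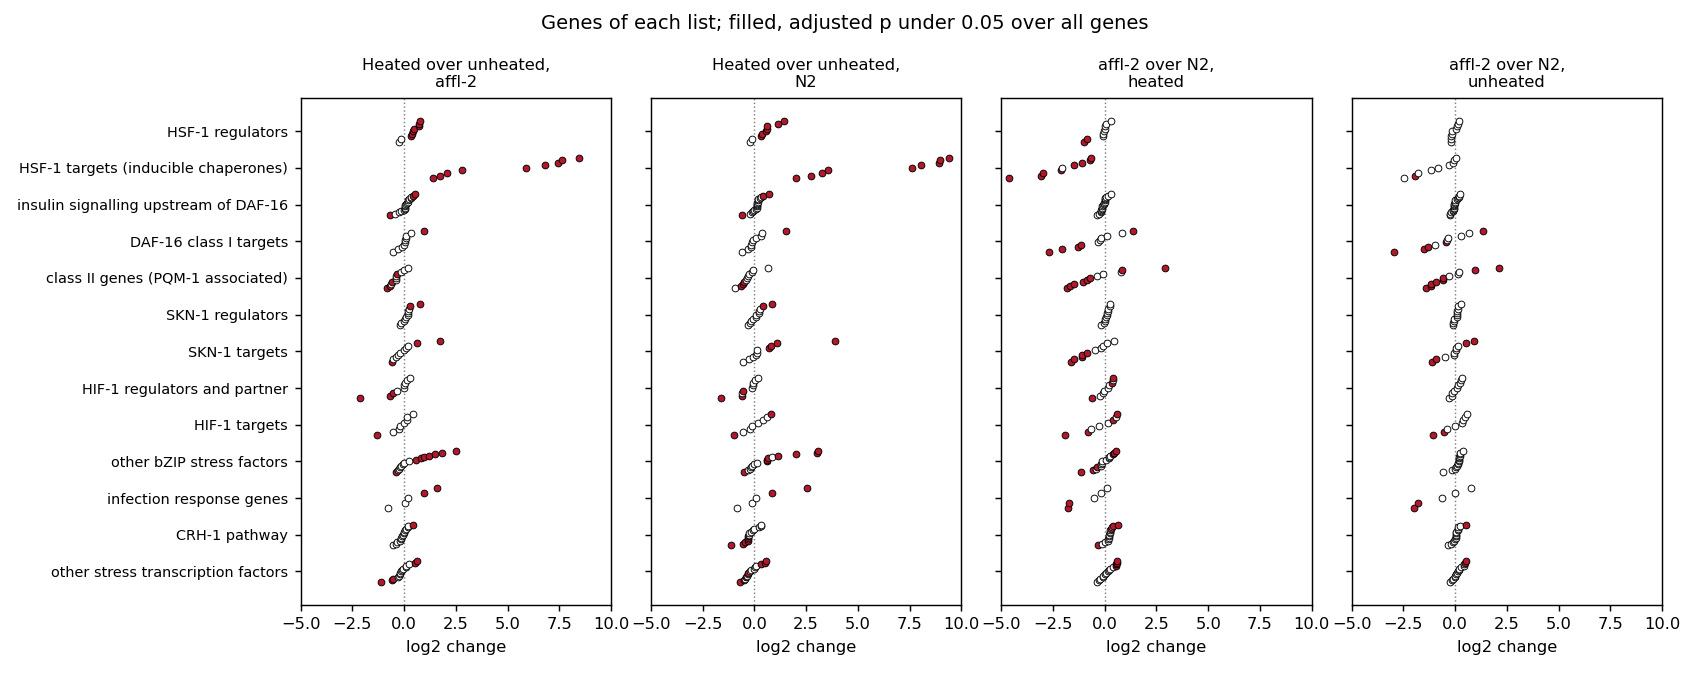
Log2 changes of the genes in each list for heat shock in each genotype and for the genotype difference at each temperature, filled where the adjusted p over all genes was under 0.05. The inducible chaperone genes reach 8.44 (hsp-16.41) in affl-2 and 9.40 (hsp-70) in N2 with heat, and the other lists stay mostly within 4 of 0.

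For the members that passed a test, the genes of most similar pattern were sought among 12757 genes by Pearson correlation of log2 CPM over the 12 libraries, which share their groups and scaling. For pqm-1 these were lgg-1, the Atg8 homolog of autophagy (r = 0.982), M05D6.3 (0.978) and the C-type lectin gene clec-221 (0.975). For skn-1 they were the Mediator gene sop-3 (0.979), the translation initiation gene eif-3.B (0.977) and R05D3.8 (0.976), and for zip-2 the protein disulfide isomerase gene pdi-2 (0.984), the myosin light chain gene mlc-1 (0.980) and cpn-3 (0.978).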

How the data were processed

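Per the submitters' processing notes, base calls were converted with bcl2fastq 1.8.4 and quantified with kallisto, whose version the sources used here do not give, on build WBcel235. The authors' deposited tables give estimated counts, TPM and effective length for 35862 transcripts. The deposited effective lengths fit a mean fragment of 300 nt. Here estimated counts were summed by sequence name to 22010 genes and rounded; 21630 matched Ensembl release 115. No 2 libraries held identical values. The low-count filter was filterByExpr by group at a minimum of 10 counts, which left 15386 genes to test and 6624 untested. edgeR 4.0.16 (R 4.3.3; TMM, robust quasi-likelihood, 1 fit of 4 group means, 8 residual degrees of freedom) gave the tests and limma 3.58.1 and DESeq2 1.42.0 alternatives; the scripts were tested on simulated data. CPM are counts scaled by TMM. Standard errors come from the F statistic.

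Named genes are all members, up to 4 per list and comparison with the smallest adjusted p, and the 3 genes most like each member that passed; ddl-1, hpk-1, sod-3, gcs-1 and irg-1 were named after their values were seen. Members and lists were chosen with earlier results of these data known. Of the listed names, 7 matched no single gene: hsf-2, hsp-16.11, hsp-16.48, hsp-16.49, dod-8, atf-5 and unc-17. Promoter sequences were not analysed here. By the replicate numbers of the titles, 13 of 18 pair correlations were over 0.1 (range -0.34 to 0.351). Each of the others involved unheated affl-2 replicate 1 or 2. The reported fit holds no replicate block. File names and description fields of unheated affl-2 replicates 1 and 2 name each other, and with their numbers exchanged all 18 lay over 0.1 (0.116 to 0.351), so this block is given where it changes a call.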

Additional observations from a re-analysis of the deposited data

Results flagged for a closer look

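Heat shock effects that differed between genotypes by the interaction test in edgeR are set out here, as the log2 change in mutants less that in N2, each with 3 libraries per group. No member was among them. Among the SKN-1 targets they were ugt-13 at -2.13 (adjusted p = 7.46e-05), gst-7 at -0.97 (adjusted p = 0.0141) and nit-1 at -1.10 (adjusted p = 0.042). Among the HSF-1 targets they were hsp-110 at -1.20 (adjusted p = 0.000364), dnj-13 at -1.01 (adjusted p = 0.00113) and hsp-70 at -3.49 (adjusted p = 0.0131), and among the HSF-1 regulators hsp-1 at -0.78 (adjusted p = 0.0151). All 7 genes rose less, or did not rise, with heat in affl-2. The calls of ugt-13, gst-7, hsp-110 and dnj-13 passed in every other setting and without each library in turn. The call of nit-1 was lost in 12 of them, that of hsp-70 in 3 (without unheated affl-2 replicate 2 or heated affl-2 replicates 2 or 3) and that of hsp-1 in 1 (without heated affl-2 replicate 1).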

How the results depend on the processing

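Of 792 member values recomputed, 749 kept direction and side of the threshold, 34 passed only in the alternative, 9 lost the call and 0 reversed. Members called numbered 4 under library size alone with heat in N2 and between genotypes at either temperature, 2 by DESeq2 between unheated genotypes, and 1 in the interaction by DESeq2 and without the low-count filter. With the exchanged replicate block they were 4 with heat in affl-2, 3 between unheated and 4 between heated genotypes and 1 in the interaction. Without 1 library they were 2 to 3 with heat in each genotype, 0 to 2 between heated and 1 to 3 between unheated genotypes, and 0 to 1 in the interaction. All genes called, reported as 3034 between heated genotypes, 2150 between unheated genotypes and 110 in the interaction, numbered 5699 and 3386 between heated and between unheated genotypes under library size alone, and 216 in the interaction by DESeq2. With the exchanged replicate block they numbered 5155 between heated genotypes, 3604 between unheated genotypes and 221 in the interaction. The block by title numbers moved no count of calls by over 1.5 times, and gave hif-1 with heat in N2 an adjusted p of 0.0426. Without 1 library all genes called were 1475 to 3897 between heated genotypes, 1220 to 2550 between unheated genotypes, 80 to 128 in the interaction, 2462 to 3277 with heat in affl-2 and 2290 to 3647 with heat in N2.

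Transcripts called for usage numbered 29 (reported: 45) with heat in affl-2 and 6 (reported: 10) between unheated genotypes with a minimum of 5% of gene counts, and 181, 253, 69, 28 and 37 by limma with heat in affl-2, in N2, between heated, between unheated genotypes and in the interaction (reported: 45, 62, 27, 10 and 9). Member rows called by limma were 1, 2 and 2 with heat in affl-2, in N2 and in the interaction. By edgeR on lettered forms, 1 member form was called with heat in affl-2. Without 1 library, in that same order of comparisons, transcripts numbered 32 to 49, 41 to 67, 15 to 37, 5 to 19 and 5 to 16, and member rows 0 to 2, 0 to 1, 0 to 1, 0 to 2 and 0 to 1. The causes were not tested. Each member had 428 counts or more in a library, so the 3 libraries per group, more than depth, limit its precision; shares of rows of nearly equal length are less certain.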
